A study of Mus musculus with 9 samples.

Results

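Immediate early genes are transcribed within minutes of a signal reaching the cell, from promoters that need no newly made protein. The 10 described here, Fos, Fosb, Fosl1, Jun, Junb, Egr1, Ier2, Atf3, Myc and Dusp1, were read by symbol from the table of deposited read counts. All 10 were found, among the 24421 rows of the table. The table covers 9 RNA-seq libraries from the brain of C57BL/6 mice. Control1 to Control3 and BAL1 to BAL3 hold SB28 cells, a mouse glioma line that carries GFP and luciferase, implanted in the brain of vehicle-treated control mice or of mice given BAL101553. BAL101553 is an orally given prodrug of a compound that disrupts microtubules and activates the spindle assembly checkpoint. According to the study's methods, tumors were dissociated with an enzymatic kit and SB28 cells were sorted as CD45- CD11b- GFP+, whereas the labels call the material whole tissue. The study states fewer such samples per group than the 3 in the table and names another deposit for its data, so how far its account of sorting and harvest covers each library is not certain. By that account treated tumors were taken later than control tumors so that their volumes matched, so treatment and time of growth cannot be told apart. Astro1 to Astro3 are labelled as astrocytes with the treatment BAL101553. The text of the study does not name them, and how these cells were isolated is not given in the sources used here.

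Fos, Fosb and Fosl1 pair with Jun or Junb to form AP-1, a transcription factor whose make-up sets which genes it binds and how strongly it activates them. Egr1 is a zinc finger transcription factor, Ier2 a small nuclear protein, Atf3 a stress-induced factor of the ATF family, and Myc a factor for growth genes that binds DNA with Max. Dusp1 is a phosphatase that switches MAP kinases off and so closes the loop that induced these genes. They are known to respond to growth factors, to stress and to the enzymatic dissociation of tissue. No library known to hold undissociated cells was analysed here, and the effect of dissociation was not tested.

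Depth ran from 22919523 to 34013875 counted reads per library. The labels were checked against marker genes, as sums of CPM, read counts relative to library size after TMM scaling over the 9 libraries. The 6 astrocyte markers summed to 9572 to 11982 CPM in the astrocyte libraries, 935 to 965 in control and 675 to 781 in BAL101553 libraries, where Gja1 made up nearly all of the sum. The astrocyte libraries also carried 427 to 922 CPM over 8 microglial markers and 7505 to 9147 over 5 oligodendrocyte markers, so they were not astrocytes alone. In the 6 SB28 libraries the same sums stayed at 2.09 to 4.53 and 14.3 to 19.2 CPM. The 6 neuronal markers summed to 13.5 to 34.5 CPM in the 9 libraries, with Rbfox3 at 0 in all 6 SB28 libraries and Slc17a7 at 0 in the 3 control libraries. The 6 endothelial and pericyte markers summed to 515 to 866 CPM in SB28 libraries, almost all of it Cdh5, and to 263 to 308 in astrocyte libraries. The lower sum came from Cdh5, at a mean of 20.1 CPM in astrocyte against 530 in BAL101553 libraries. Cldn5, Pecam1, Rgs5 and Kcnj8 went the other way, with means of 61.3, 23.6, 101 and 32.4 CPM in astrocyte libraries. Their means in BAL101553 libraries were 0.811, 0.532, 0.856 and 0.0228 CPM, and Flt1 overlapped between these groups. Levels in a mixture of cells cannot tell fewer cells of a type from less RNA per cell.

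Promoter sequence is shown for the 4 members that were lowest together in Control2, a set chosen after the values were seen. Control2 was the lowest control library for these 4 of the 10 members, beside 32.6% of 15408 genes. Each run is the 250 bases before the RefSeq gene start in build GRCm38.p6, 5′ to 3′ on the strand of the gene, and sequences were read for 6 of the 10 members. Capitals mark matches on either strand to TGACG, the core of the cyclic AMP response element, to the full element TGACGTCA, which contains the core on both strands, or to the TATAAA box. The Fos run lies at chr12:85473640-85473889 on the plus strand. Those of Fosb, Atf3 and Dusp1 lie on the minus strand at chr7:19310046-19310295, chr1:191183334-191183583 and chr17:26508473-26508722. The gene spans given below come from GENCODE vM21, whose starts can differ from those of RefSeq. For Atf3 and Dusp1 the GENCODE start lies further upstream, so their runs fall inside those spans. The run of Fosb reaches just into its span.
Fos: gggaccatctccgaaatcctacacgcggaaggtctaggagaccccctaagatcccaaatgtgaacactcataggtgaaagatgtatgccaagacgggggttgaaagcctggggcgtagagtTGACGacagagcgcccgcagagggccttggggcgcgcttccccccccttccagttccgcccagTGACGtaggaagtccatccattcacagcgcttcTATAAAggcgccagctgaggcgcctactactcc
Fosb: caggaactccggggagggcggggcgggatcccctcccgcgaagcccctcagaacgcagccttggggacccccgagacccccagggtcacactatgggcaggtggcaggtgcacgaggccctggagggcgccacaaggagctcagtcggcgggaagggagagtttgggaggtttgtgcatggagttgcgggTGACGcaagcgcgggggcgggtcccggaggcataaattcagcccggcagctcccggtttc
Atf3: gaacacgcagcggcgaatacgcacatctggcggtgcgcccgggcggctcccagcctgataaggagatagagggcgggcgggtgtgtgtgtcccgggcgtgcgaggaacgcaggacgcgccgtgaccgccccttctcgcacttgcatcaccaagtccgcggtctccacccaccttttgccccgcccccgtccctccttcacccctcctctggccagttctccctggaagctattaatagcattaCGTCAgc
Dusp1: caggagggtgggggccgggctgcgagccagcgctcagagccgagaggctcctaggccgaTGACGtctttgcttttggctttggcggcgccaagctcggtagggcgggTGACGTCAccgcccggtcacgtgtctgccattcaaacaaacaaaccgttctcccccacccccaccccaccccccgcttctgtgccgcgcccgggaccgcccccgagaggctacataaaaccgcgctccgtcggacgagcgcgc
The Fos run held TGACG at positions -129 to -125 and -66 to -62, counted back from the start, and TATAAA at -33 to -28. Fosb held TGACG at -60 to -56, and Atf3 at -7 to -3 on the opposite strand. In Dusp1 the full element stood at -143 to -136, with a further TGACG at -191 to -187. Of the 6 members searched, which add Jun and Junb to these 4, 5 held TGACG, all but Jun, against 17.8% of 32851 promoters of the same length. TGACGTCA was in 1 of 6 (1.55% of all promoters) and TATAAA in 1 of 6 (12.4%). Neither a CArG box, the core of the serum response element (1.47%), nor the AP-1 site TGACTCA or TGAGTCA (4.46%) was in any of the 6. These are matches of letters in a short window and say nothing of binding or of elements further upstream. Fosl1, Egr1, Ier2 and Myc were not searched.

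SB28 cells carried high levels of most of these genes. Per kilobase of exon, mean control levels were 261 CPM for Jun, 248 for Ier2, 239 for Fos, 204 for Junb and 143 for Egr1, at or above 97.8% to 98.9% of 14825 genes. These were the genes with a length that also passed the filter on low counts over the 9 libraries. Fosl1 followed at 82.2, Dusp1 at 72.2 and Myc at 67.5 CPM per kilobase, and Fosb at 30.6 and Atf3 at 24.2 were the lowest. The standard deviations were 40.2 for Jun, 41.6 for Ier2, 53.4 for Fos, 29.1 for Junb and 23.5 for Egr1, so the order of Jun, Ier2, Fos and Junb was not separated by the spread of the 3 libraries. The same held for Fosl1 (SD 9.84), Dusp1 (15.4) and Myc (16.4), and for Fosb (5.5) and Atf3 (10.2). In the astrocyte libraries Fos led at 113.8 CPM per kilobase, ahead of Jun at 81.9, Egr1 at 34.7 and Junb at 33.7, and Fosl1 was last at 0.124.

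Summed over the 10 genes, the libraries held 3380, 3624 and 4142 CPM in Control1 to Control3. The sums were 2950, 4627 and 2855 CPM in BAL1 to BAL3, so BAL2 was above and BAL1 and BAL3 below every control library. Astro1 to Astro3 held 1006, 987 and 1060 CPM, below all 6 SB28 libraries.

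**Figure D1:**
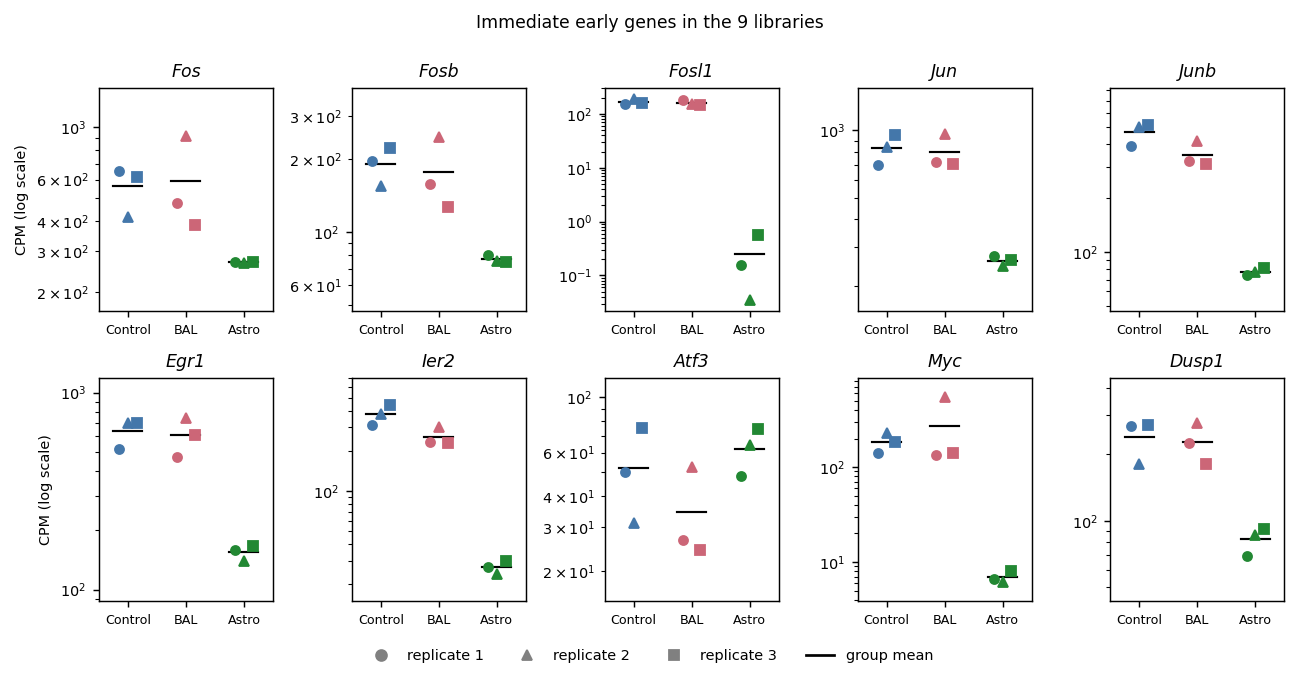
CPM (log axis, own range for each gene) of the 10 immediate early genes in control, BAL101553 and astrocyte libraries, with 1 point per library, its shape giving the replicate number, and a bar at the group mean. BAL2 (triangle) is the highest BAL101553 library for 9 genes, and the astrocyte libraries lie below both other groups for all genes but Atf3.

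The first comparison asks whether BAL101553 treatment of the mouse changed these genes in the tumor cells. No member passed the test: 0 of 10 were called at an adjusted p under 0.05 (quasi-likelihood test of edgeR, adjusted by the Benjamini-Hochberg method for 12633 genes), where 14.7% of all genes were called. At an unadjusted p under 0.05 there were 2, Junb and Ier2, against 34.1% of all genes. Called members numbered 1 with edgeR's exact test and with limma, in both Ier2, and 2 with DESeq2, Junb and Ier2. Ier2 was also the only member whose groups did not overlap, with BAL101553 lower, against 19.6% of all genes apart in that direction. The median log2 fold change of the 10 was -0.07, beside 0.02 for all genes. The study calls its ex vivo samples biological replicates, but for fewer libraries than are used here, and the labels do not tie libraries to mice, so p-values measure only the spread between these samples.

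**Figure D2:**
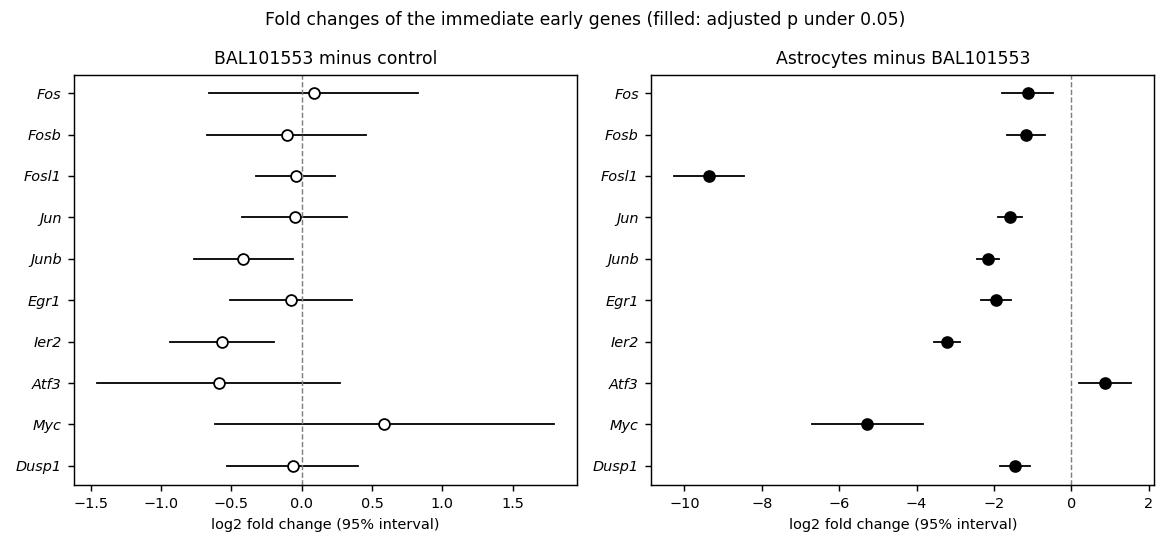
Log2 fold changes of the 10 genes with 95% intervals from edgeR's quasi-likelihood fit, BAL101553 minus control at left and astrocytes minus BAL101553 at right (different scales); filled points have an adjusted p under 0.05. At left no point is filled and the values of Fosl1, Jun, Egr1 and Dusp1, all near 0, change sign when only library totals are used for scaling; at right 9 genes lie below 0 and Atf3 above.

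Of the Fos family, Fos itself (chr12:85473890-85477273) stood at 651, 419 and 617 CPM in Control1 to Control3 and at 478, 916 and 385 CPM in BAL1 to BAL3. The groups overlapped, with BAL2 highest and BAL3 lowest of the 6. The log2 fold change was 0.08 (SE 0.32, 95% interval -0.66 to 0.83, adjusted p = 0.871, edgeR). Without BAL2 it was -0.38. Fosb (chr7:19302696-19310051), a close paralog, followed the same order of libraries within BAL101553, with 195, 155 and 223 CPM in control and 157, 246 and 127 CPM in BAL101553 libraries, and a log2 fold change of -0.11 (SE 0.24). Fosl1 (chr19:5447547-5455946), which encodes FRA-1, a Fos relative that lacks a strong activation domain, varied least. Its levels were 152, 189.9 and 159 CPM in control and 183, 156 and 145 CPM in BAL101553 libraries, with a log2 fold change of -0.04 and a 95% interval from -0.33 to 0.24. An exon of Fosl1 overlaps Ccdc85b on the opposite strand in GENCODE vM21, and whether counting used strand is not given in the sources used here.

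Jun (chr4:95049034-95052222) and Junb (chr8:84974484-84978718) encode partners of the Fos proteins, Jun the stronger activator. Jun was at 698, 844 and 954 CPM in control and at 725, 968 and 705 CPM in BAL101553 libraries, with each BAL101553 library close to a control one. Its log2 fold change was -0.05 (SE 0.16). Junb was at 393, 499.7 and 516 CPM in control and at 322, 418 and 311 CPM in BAL101553 libraries, so that BAL2 lay above Control1 and the other BAL101553 libraries below all controls. Its log2 fold change of -0.42 (SE 0.15, 95% interval -0.77 to -0.07) had an unadjusted p of 0.0257 and an adjusted p of 0.0991 (edgeR). Without BAL2 it was -0.57, with an adjusted p of 0.0348. The exons of Junb overlap Prdx2 and those of Jun overlap the antisense gene Junos, each on the opposite strand; Junos has no row in the table.

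Egr1 (chr18:34859823-34864984) was at 520.2, 701 and 705 CPM in control and at 468, 744 and 607 CPM in BAL101553 libraries. The ranges overlapped almost fully, and the log2 fold change was -0.07 (SE 0.19). Ier2 (chr8:84661331-84662852) was at 314, 377 and 441 CPM in Control1 to Control3 and at 231, 303 and 227 CPM in BAL1 to BAL3. Each BAL101553 library was below each control library, by a small gap between BAL2 and Control1. Its log2 fold change was -0.57 (SE 0.16, 95% interval -0.94 to -0.20), a 1.48-fold lower mean, with an adjusted p of 0.0514 (edgeR). Over the alternatives tried, that adjusted p ran from 0.00678 to 0.302, always with a negative log2 fold change. Without BAL2 the value was -0.72, with an adjusted p of 0.0244.

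Atf3 (chr1:191170296-191218039) spread widely in both groups. It stood at 50.2, 31.2 and 75.0 CPM in control and at 26.8, 52.3 and 24.3 CPM in BAL101553 libraries, a range of 2.40-fold and 2.15-fold between the lowest and the highest library. The log2 fold change of -0.59 was as large as that of Ier2, but its standard error was 0.37 and the groups overlapped (adjusted p = 0.302, edgeR). Dusp1 (chr17:26505590-26562128) was at 267, 180.3 and 271 CPM in control and at 225, 277 and 181 CPM in BAL101553 libraries, with the lowest library of each group at almost the same level. Its log2 fold change was -0.07 (SE 0.20). Exons of Dusp1 overlap Ergic1 on the opposite strand in GENCODE vM21, where Dusp1 begins upstream of the RefSeq start used above.

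Myc (chr15:61985391-61990374) had the widest spread of the 10 among the SB28 libraries. It was at 139, 229 and 183 CPM in Control1 to Control3 and at 133, 547 and 142 CPM in BAL1 to BAL3. BAL2 alone was above the control range, and BAL1 was below it. The log2 fold change was 0.59 (SE 0.52, 95% interval -0.62 to 1.80, adjusted p = 0.460, edgeR), and without BAL2 it was -0.41 (adjusted p = 0.174), so the direction rested on that library.

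The neighbours of Myc were read after this value was seen. Within 3 Mb of its start, 9 genes including Myc had a mean of at least 1 CPM in the SB28 libraries. Pvt1 (chr15:62037986-62378096), a long noncoding RNA gene next to Myc, was at 190.9 CPM in BAL2 and at 15.2 to 21.8 CPM in the other 5 SB28 libraries, 9.93 times their mean. Trib1 (chr15:59648350-59657099), a pseudokinase gene that is also a primary response gene, was at 1048 CPM in BAL2 against 158 to 325, 4.26 times the mean. Myc itself was 3.31 times the mean of the other 5. The other 6 genes in the window, Sqle, Nsmce2, Fam84b, 9930014A18Rik, Fam49b and Asap1, lay within the range of the other 5 libraries, at 0.842 to 0.957 times their mean. Of 12633 genes, 185 (1.46%) were at least 3-fold above that mean in BAL2. What made BAL2 differ at these 3 genes was not tested.

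**Figure D3:**
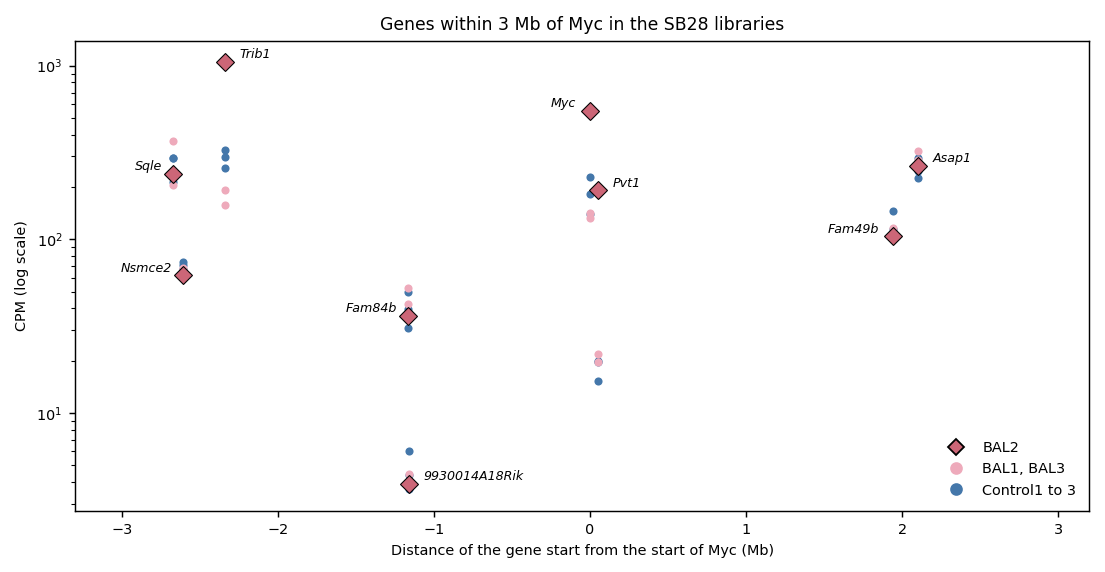
CPM (log axis) of the 9 genes within 3 Mb of Myc with a mean of at least 1 CPM, against the distance of the gene start from that of Myc in Mb, in the 6 SB28 libraries (diamond, BAL2). BAL2 stands above all other SB28 libraries for Trib1, Myc and Pvt1 and within their range for the other 6 genes.

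The members did not all vary together between libraries of a group. BAL2 was the highest BAL101553 library for 9 of the 10 genes, all but Fosl1, beside 34% of 15408 genes, and BAL3 was the lowest for 8, beside 28.1%. In control, Control3 was highest for 7 (29.0% of all genes) and lowest for none. Control1 was lowest for Fosl1, Jun, Junb, Egr1, Ier2 and Myc, and Control2 for Fos, Fosb, Atf3 and Dusp1, beside 41.1% and 32.6% of all genes. On the log2 scale, Control2 lay below its group mean by -0.40 for Fos, -0.29 for Fosb, -0.65 for Atf3 and -0.38 for Dusp1, the genes whose promoters are shown above, while Junb, Egr1 and Myc lay above it by 0.10, 0.14 and 0.35. Junb held TGACG too, and the promoters of Egr1 and Myc were not searched. A link between the motif and the levels in Control2 was not tested. Among the astrocyte libraries Fos and Fosb differed little, with a highest library 1.01-fold and 1.07-fold above the lowest, and Astro3 was highest for 8 members, beside 39.4% of all genes.

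**Figure D4:**
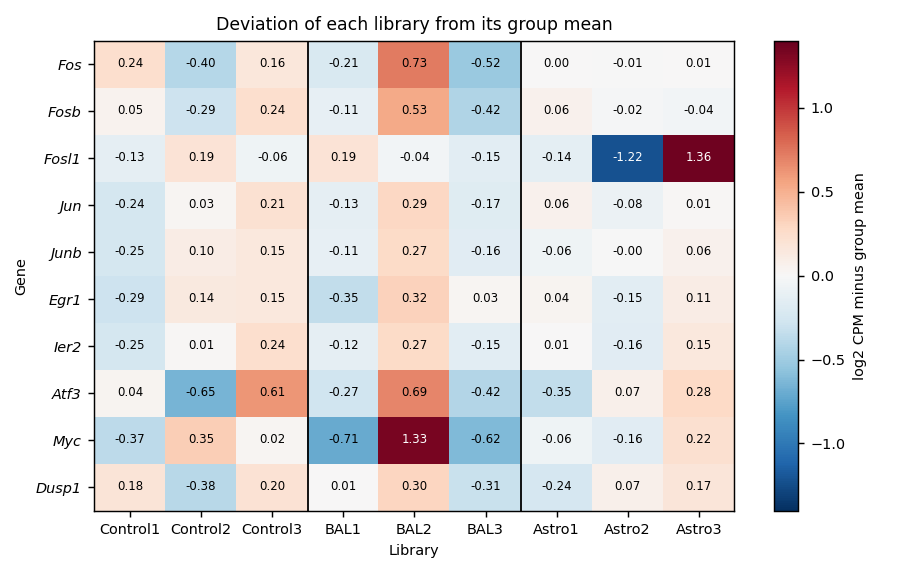
Log2 CPM of each library minus its group mean (color scale and printed values) for the 10 genes (rows) in the 9 libraries (columns). BAL2 is red for every gene but Fosl1, whose deviation there is -0.04; in Control2, Fos, Fosb, Atf3 and Dusp1 are blue, and the large deviations of Fosl1 in Astro2 and Astro3 come from 1 and 15 reads.

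Over the 9 libraries, deviations of Fosb from the group means had a Pearson's r of 0.97 with those of Fos. For Atf3 and Dusp1 r was 0.83, for Myc 0.68, for Jun 0.56, for Ier2 0.50, for Junb 0.47, for Egr1 0.30 and for Fosl1 -0.05. These are descriptions over 9 points that share libraries and depth, in which BAL2 carries the largest deviation of Fos. The 5 genes outside the 10 most like Fos, of 15408 compared, were Slc30a1 (0.995), a zinc exporter, Gng10 (0.994), a G protein subunit, Kctd6 (0.985), Ccbl2 (0.984) and Rps4x (0.984), a ribosomal protein.

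Genes of 6 further lists were read in the same comparison, those of related pathways and, as a separate list, heat shock genes. Of 36 further primary response genes tested, out of 37 listed, 4 rose and 6 fell, beside 8.64% and 6.09% of all genes, with a median log2 fold change of 0.01. The largest rises were those of the orphan nuclear receptors Nr4a3 and Nr4a2. Nr4a3 was at 0.314, 0.341 and 0.800 CPM in control and 2.70, 2.49 and 4.06 CPM in BAL101553 libraries (log2 fold change 2.67, SE 0.42, adjusted p = 0.0119, edgeR). Nr4a2 was at 5.07, 6.82 and 4.25 CPM in control and 17.0, 22.2 and 17.5 CPM in BAL101553 libraries (log2 fold change 1.82, SE 0.21, adjusted p = 0.00728). The groups did not overlap for either gene. Their relative Nr4a1 was at 20.2, 73.5 and 34.3 CPM in control and 59.2, 63.6 and 99.9 CPM in BAL101553 libraries, overlapping.

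Among the falls, Egr2, a relative of Egr1, was at 31.7, 26.6 and 28.5 CPM in control and 17.4, 15.1 and 11.0 CPM in BAL101553 libraries (log2 fold change -0.99, SE 0.18, adjusted p = 0.0167, edgeR). Arc, a gene best known from active synapses, was at 19.7, 56.0 and 21.8 CPM in control and 14.4, 12.3 and 9.54 CPM in BAL101553 libraries (log2 fold change -1.42, SE 0.39, adjusted p = 0.0489), where Control2 set the size of the difference. Without Control2 it was -0.79 (adjusted p = 0.0525). The other members of the list past the test were Gadd45b and Per1, which rose, and Csrnp1, Phlda1, Ctgf and Ier5, which fell, with log2 fold changes of 0.91, 0.81, -0.92, -0.98, -0.61 and -0.51.

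Among 11 other AP-1 partners 2 rose and none fell, beside 8.64% and 6.09% of all genes, with a median of 0.34. The 2 were Atf7 (0.47, SE 0.09) and Atf2 (0.34, SE 0.09), both constitutive partners of Jun. Of 24 upstream kinases and promoter-bound factors tested, Elk4, a serum response factor cofactor, rose from 13.1, 15.8 and 13.2 CPM to 26.0, 27.0 and 25.9 CPM (log2 fold change 0.91, SE 0.12, adjusted p = 0.00793, edgeR). The MAP kinase kinases Map2k2 and Map2k4 fell by 0.47 each on the log2 scale, and the median of the list was -0.05.

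Of 16 feedback inhibitors 1 rose and 3 fell, beside 8.64% and 6.09% of all genes, with a median of -0.18. Dusp5, a nuclear phosphatase for ERK and so a relative of Dusp1, fell from 56.4, 73.2 and 79.8 CPM to 33.4, 25.6 and 30.4 CPM (log2 fold change -1.22, SE 0.15, adjusted p = 0.00728, edgeR). Dusp4 and Dusp14 fell by 0.67 and 0.51 on the log2 scale. Spry1, a Sprouty inhibitor of receptor signalling to ERK, rose from 5.16, 10.9 and 7.96 CPM to 19.3, 40.0 and 36.2 CPM (log2 fold change 2.0, SE 0.34, adjusted p = 0.0137).

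Of 10 Max network genes tested, Mycl, a relative of Myc, fell by 1.44 on the log2 scale (SE 0.37) from 14.8, 5.76 and 7.37 CPM to 3.28, 4.14 and 2.86 CPM, and Mga, a repressor that pairs with Max, rose by 0.45 (SE 0.12). The median of that list was 0.19, and 14.7% of all genes were called in this comparison. Of 12 heat shock genes, which answer protein stress rather than growth signals, Hspa1b rose by 1.15 (SE 0.21), Dnajb1 and Bag3 fell by 0.59 and 0.35, and the median was -0.04. Hspa1b and Hspa1a are nearly identical, so reads between them are uncertain.

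The calls of these lists depended on single libraries. With any 1 of the 6 libraries left out, Nr4a3, Nr4a2, Elk4 and Dusp5 stayed called. Egr2 lost the call without Control1 (adjusted p = 0.0571, edgeR) or Control3 (0.0653), Spry1 without Control3 (0.0650) and Hspa1b without Control1 (0.0609). Arc, Atf2 and Mga lost it without any of the 6, and the other genes named by rank without 3 to 5 of the 6. Further primary response genes called numbered 5 without Control1, 3 without Control3 and 6 each without BAL1 and without BAL3, against 10 with all libraries. The other 5 lists had 2 to 4 genes called with all libraries, 0 to 2 without Control1, Control3 or BAL3, and 0 to 5 without Control2, BAL1 or BAL2. Leaving out Control3 and BAL1 together left 1 gene called among all genes and none in these lists. In that fit Nr4a3, Nr4a2, Elk4 and Dusp5 had log2 fold changes of 3.31, 1.74, 0.87 and -1.21, with adjusted p of 0.0732, 0.0732, 0.0965 and 0.0732.

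**Figure D5:**
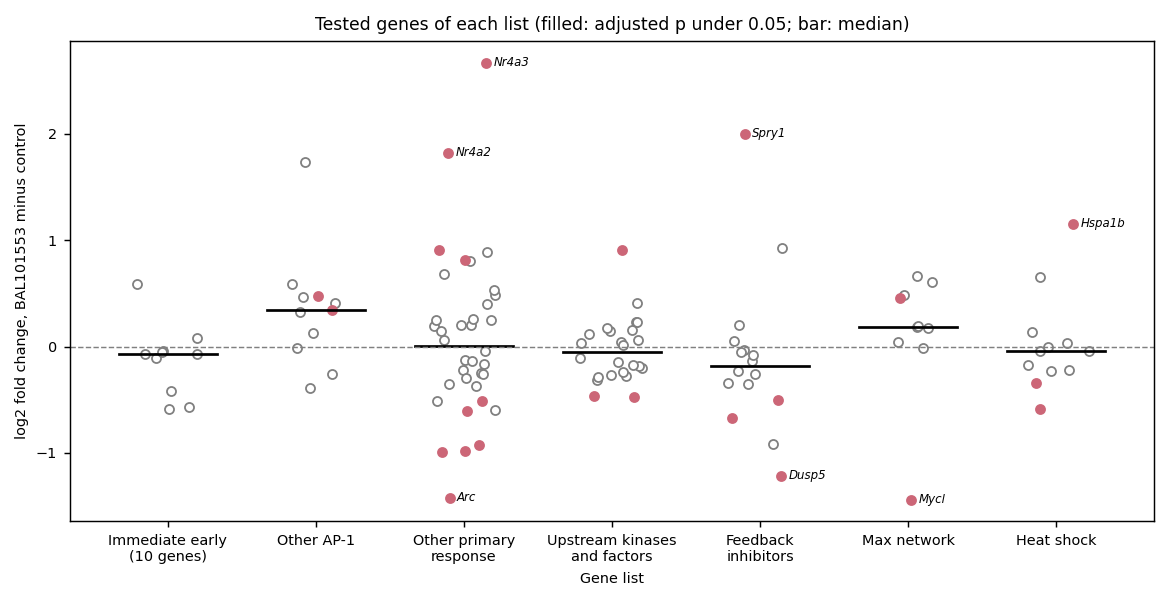
Log2 fold change, BAL101553 minus control, of each tested gene of the 7 lists, with filled points at an adjusted p under 0.05 and a bar at the median; called genes past 1 in size carry their names. No point of the 10 immediate early genes is filled, while Nr4a3 (2.67), Spry1 (2.0) and Nr4a2 (1.82) are the highest filled points of the other lists.

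The second comparison sets the astrocyte libraries against the BAL101553 tumor libraries, which share the treatment label but differ in cell type. All 10 members were called, 9 lower and 1 higher, in a comparison that called 85.1% of 15314 genes, 38.9% lower and 46.3% higher. Groups did not overlap for the 9 lower genes, against 40.2% of all genes apart in that direction. The median of the 10 was -1.77, beside 0.18 for all genes. That median of all genes moved to 0.36 with upper quartile scaling and to 0.39 with library totals, and was 0.012 over the 11873 genes with at least 10 counts in every library. The microglial and oligodendrocyte markers given above, and 4 of the 6 endothelial and pericyte markers, rose with the same comparison. Of the 6 neuronal markers, 3 rose and 2 fell. The part of the cells behind these markers in the values of the 10 members was not tested.

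Fosl1 differed most. It had 5, 1 and 15 reads in Astro1 to Astro3 against 5358, 3962 and 4925 in BAL1 to BAL3. Summed over the group and scaled by library size after TMM, BAL101553 reads were 674 times astrocyte reads (95% interval 441 to 1089, counting error only). Astro3 held 15 of the 21 astrocyte reads, and the log2 fold change of -9.36 was -10.61 without that library. Fos and Fosb differed far less, at 269, 266 and 269 CPM for Fos in the astrocyte libraries (log2 fold change -1.13, SE 0.28, adjusted p = 0.00595, edgeR) and 80.1, 76.0 and 75.0 CPM for Fosb (-1.18, SE 0.21). Without BAL2 the value of Fos was -0.69. Per kilobase, Fos was at or above 98.4% of the same 14825 genes in these libraries, and Fosl1 at or above 3.96%.

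Jun was at 273, 248 and 264 CPM and Junb at 74.3, 77.3 and 80.8 CPM in Astro1 to Astro3, with log2 fold changes of -1.60 (SE 0.13) and -2.16 (SE 0.12). Egr1 was at 159, 140.1 and 167 CPM (-1.95, SE 0.17). Ier2 was at 27.0, 24.0 and 29.8 CPM, a 9.30-fold lower mean (-3.22, SE 0.14, adjusted p = 2.79e-07, edgeR). Dusp1 was at 69.4, 86.1 and 91.9 CPM (-1.45, SE 0.17).

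Myc was at 6.63, 6.21 and 8.08 CPM in Astro1 to Astro3, a 38.7-fold lower mean than in BAL101553 libraries (-5.27, SE 0.62, adjusted p = 7.09e-05, edgeR) and a 26.3-fold lower mean than in control. Without BAL2 the log2 fold change was -4.31. Atf3 was the exception, at 48.1, 64.1 and 74.3 CPM in the astrocyte libraries. It was higher than in BAL101553 libraries by 0.87 on the log2 scale (SE 0.29, adjusted p = 0.0224), but Astro1 lay below BAL2. The call was lost without BAL1 (0.70, adjusted p = 0.0930), without BAL3 (0.68, 0.0706), without Astro2 (0.85, 0.0541) and without Astro3 (0.74, 0.0788). Against control libraries the value was 0.26 (adjusted p = 0.412).

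Among the other lists, AP-1 partners were lower in 8 of 11 and higher in none, with a median of -1.33. Beside this, 38.9% of all genes were lower and 46.3% higher. Maff, a small Maf protein, and Fosl2, a Fos relative, fell by 4.87 and 4.42 on the log2 scale. Fosl2 was at 6.84, 12.3 and 9.51 CPM in Astro1 to Astro3 against 221, 226 and 173 CPM in BAL1 to BAL3. Batf and Mafk were lower too (log2 fold changes -2.90 and -2.02), Batf at -1.99 without BAL2, where it was at 5.52 CPM against 1.33 and 1.56 in BAL1 and BAL3. Jund, the most constitutive Jun protein, was at 126, 111 and 101 CPM against 143, 190.4 and 113 CPM (-0.38, adjusted p = 0.0785, edgeR).

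Of 36 further primary response genes tested, 24 were lower and 6 higher, beside 38.9% and 46.3% of all genes, with a median of -1.70. Ptgs2, which encodes the prostaglandin enzyme COX-2, fell by 6.14 on the log2 scale, from 569, 496 and 362 CPM in BAL1 to BAL3 to 3.48, 11.7 and 4.79 CPM in Astro1 to Astro3. Ier3 fell by 4.81, Trib1 by 4.06 and Errfi1, an inhibitor of the EGF receptor, by 3.96. Without BAL2, which stood at 1048 CPM, the value of Trib1 was -2.68, and without Astro2 that of Ptgs2 was -6.83. The 6 higher genes were Arc (2.39), Rhob (1.01), Nr4a3 (0.94), Zfp36l1 (0.89), Btg2 (0.84) and Gadd45b (0.44).

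Feedback inhibitors were lower in 11 of 16 and higher in 2, beside 38.9% and 46.3% of all genes, with a median of -0.94. Dusp9 had 7 reads in all in the astrocyte libraries and 4137 in BAL101553 libraries. Scaled by library size after TMM, its BAL101553 reads were 587 times its astrocyte reads (95% interval 285 to 1461, counting error only). The log2 fold changes of Dusp5, Dusp4 and Dusp2 were -5.93, -5.64 and -5.0. Upstream kinases and factors were lower in 17 of 25 and higher in 6, beside the same shares of all genes, with a median of -0.58. Mapk10, the neural JNK gene, was at 52.5, 48.3 and 60.3 CPM in the astrocyte libraries and at 0.158 to 0.650 CPM in BAL101553 libraries. Scaled likewise, its astrocyte reads were 131 times its BAL101553 reads (94.8 to 188). Rps6ka5 rose by 2.75, while Elk3 and Map2k3 fell by 4.33 and 3.56.

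Of 11 Max network genes, 6 were lower and 4 higher, beside 38.9% and 46.3% of all genes, with a median of -0.54. Mycn, a relative of Myc, was at 224 reads in the astrocyte libraries against 23 in BAL101553 libraries, and Mxd4 and Mxd1, antagonists of Myc, rose by 1.58 and 1.19, whereas Mxd3 fell by 2.80. Of 12 heat shock genes 9 were lower and 2 higher, beside the same shares of all genes, with a median of -0.88. The mitochondrial chaperone Hspd1 and its partner Hspe1 fell by 2.40 and 1.68, and Hspb1 by 1.81, while Hspa1a was higher by 1.43, with the same doubt about reads shared with Hspa1b.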

How the data were processed

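Whole-number read counts per gene, not normalized, were deposited by the authors for 3 control, 3 BAL101553 and 3 astrocyte libraries. Stranded libraries of short reads were mapped with TopHat to mm10 and counted with HTSeq 0.6.1, according to the submitters' processing notes and the study's methods, which also name featureCounts. Which counter made the table, its strand setting and its annotation are not given in the sources used here. Date-like entries stood in place of 27 gene names; they took up to 0.44% of a library and were kept in its size.

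Each comparison was fitted on its 2 groups alone with edgeR 4.0.16 in R 4.3.3, after filterByExpr and TMM scaling, by the two-sided quasi-likelihood test. P-values were adjusted by the Benjamini-Hochberg method for every gene in the fit, with a threshold of 0.05. The size of a log2 fold change over the root of its F statistic gave the standard error. Alternatives used edgeR's exact test, DESeq2 1.42.0, limma 3.58.1 on log2 CPM (prior count 2), other scalings and filters, all 9 libraries, the replicate number as a block, and libraries left out. Levels are CPM scaled by TMM over 9 libraries, and GENCODE vM21 (GRCm38) gave lengths and positions. Replicate libraries differed by more than counting noise, at 14.3 to 64.9 in chi-square divided by its degrees of freedom, so none was counted as a repeat reading of another. This cannot tell whether they came from different mice.

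The members and lists were chosen with earlier results of these data known. From each other list up to 4 genes were named per comparison, those past the threshold, with groups apart and with the largest changes, as well as the 5 genes most like Fos; any other gene named was chosen after its values were seen.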

Additional observations from a re-analysis of the deposited data

How the results depend on the processing

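With 3 libraries a group, the precision was set by the spread between libraries rather than by depth, since each member but Fosl1 in the astrocyte libraries had at least 180 reads in every library. Among the members, 139 of 170 alternative values for BAL101553 against control kept direction and side of the threshold, 23 turned sign and 8 passed it, and for astrocytes against BAL101553 164 of 169 did, with the 5 losses those of Atf3. Fosl1 had no value there under the filter of at least 10 counts in every library. Of 18 other named genes, 220 of 305 values kept their call in the first comparison and 85 lost it with the same sign; of 24 in the second, 404 of 404 did.

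For BAL101553 against control, the number of members called was 0, but 1 with the exact test, limma, no filter on low counts or all 9 libraries in one model, 2 with DESeq2, and 0 to 2 with libraries left out, the 2 without BAL2. The number of all genes called was 1860, but 2832 with DESeq2, 3022 with all 9 libraries and 1 to 1712 with libraries left out, namely 458 without Control1, 193 without Control3, 1133 without BAL1, 668 without BAL3 and 1 without both Control3 and BAL1. Of the genes called, 58.7% were higher, and 77.4% with library totals only. The cause was not tested.

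Ier2 passed the threshold at -0.57 with the exact test (adjusted p = 0.0118), limma (0.0477), no filter (0.0403) and all 9 libraries (0.0262), and at -0.58 with DESeq2 (0.00678). Junb passed at -0.43 with DESeq2 (0.0433). Library totals turned Fosl1 to 0.039, Jun to 0.030, Egr1 to 0.0072 and Dusp1 to 0.016. With libraries left out, log2 fold changes ran from -0.38 to 0.32 for Fos, -0.43 to 0.092 for Fosb, -0.18 to 0.046 for Fosl1, -0.22 to 0.12 for Jun, -0.57 to -0.29 for Junb, -0.25 to 0.15 for Egr1, -0.72 to -0.38 for Ier2, -0.41 to 0.92 for Myc and -0.24 to 0.079 for Dusp1, so that only Junb and Ier2 of these kept 1 sign; Atf3 also kept it, from -1.03 to -0.09. For astrocytes against BAL101553, Atf3 ran from 0.68 to 1.28 with libraries left out, and was 0.26 against control.

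Deviations of libraries with the same number correlated at 0.10, 0.01 and 0.11 between control and BAL101553 and at -0.01, 0.06 and 0.04 between BAL101553 and astrocytes. Libraries of unlike number were not compared, so these values cannot tell whether samples of the same number were paired. The main fits took them as unpaired. With the replicate number as a block, 1371 genes and 0 members were called for BAL101553 against control, Fos was at -0.0075, and 12815 genes and 10 members were called for astrocytes against BAL101553.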
